A study of Mus musculus with 8 samples.

Results

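The DNA replication machinery of 4T1 cells, a mouse triple-negative mammary tumor cell line, was followed through 49 genes chosen by name, of 27051 and 27337 genes listed in the 2 processed tables. The members cover origin licensing, the replicative helicase, the DNA polymerases, the sliding clamp with its loader, Okazaki fragment processing, the single-stranded DNA binding protein RPA and nucleotide supply. All 49 were found in both tables, each symbol on 1 row, and all 49 exceeded the level required for a comparison.

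RNA was sequenced in 4 groups of 2 libraries each. Con was the control group without a stated dose, and the other groups received purified single-domain antibody (sdAb) protein at 0.5 μg/ml, either sdAb#07.81, over 24 h or 48 h, or the control antibody sdAb-Con over 48 h. sdAb#07.81 binds Nupr1, a stress-induced disordered co-regulator of transcription. Both antibodies were purified from HEK293F cells with Flag and His tags, the cell-penetrating Tat sequence and cOdc1, a C-terminal degron meant to direct the bound protein to degradation. All groups share the 4T1 line, and the labels give culture in 1% O2 and 5% CO2 without saying whether the libraries of a group came from separate cultures. The processed tables hold no value per library. Each table gives a mean normalized count per gene, the authors' average over 4 libraries of counts divided by library size factors. The first average, called the 48 h mean, covers sdAb-Con (48 h) and sdAb#07.81 (48 h). The second average, called the sdAb#07.81 mean, covers sdAb#07.81 (24 h) and sdAb#07.81 (48 h). The Con libraries are in neither average and were not analysed here.

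Because the sdAb#07.81 (48 h) libraries enter both averages, a gap between them comes from the other libraries, sdAb-Con (48 h) in the first and sdAb#07.81 (24 h) in the second. On a common scale, a gene whose 48 h mean is a given fraction of its sdAb#07.81 mean had a level in sdAb-Con (48 h) of at most that fraction of its level in sdAb#07.81 (24 h). These groups differ in antibody and in time at once, so the effects of antibody and time cannot be told apart. The level of sdAb#07.81 (48 h) against sdAb-Con (48 h) cannot be had from the averages. The averages carry no spread between libraries, and the deposited errors and p-values belong to the authors' own comparisons and were not used, so no test was made. The only error given is the counting error of a log2 ratio, its SE computed from the reads behind both means as if they shared no library, which ranged from 0.016 to 0.12 among the members.

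Eukaryotic cells license origins before S phase, when the origin recognition complex, Cdc6 and Cdt1 load the MCM2-7 ring onto DNA. In S phase the ring is activated by Cdc45 and the GINS complex, and polymerases alpha, delta and epsilon copy the strands behind it with the clamp Pcna. Many of these genes are transcribed under the control of E2F factors, so that their mRNAs accompany proliferation.

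The tables were of similar depth. The summed means were 17867752 for the 48 h mean and 17900221 for the sdAb#07.81 mean, and the library size factors, read from genes with a single read, ranged from 0.916 to 1.09. The epithelial markers *Epcam*, *Krt8*, *Krt18* and *Cdh1* had means from 2858 to 15180 in the 48 h mean, with log2 ratios of the 48 h mean to the sdAb#07.81 mean from -0.05 to 0.08. The fifth, the basal keratin *Krt14*, had 292 against 432 (log2 ratio -0.57, counting SE 0.055), and its part in the values below was not tested. Immune markers were near 0, with a highest mean of 6.97 for *Coro1a* and 0.515 for *Cd3e*, and the endothelial marker *Pecam1* had 7.15. Across 13951 genes with an average mean of at least 10, the median log2 ratio was -0.05. *Nupr1*, the target of sdAb#07.81, had 2990 against 2373, a log2 ratio of 0.33.

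Of the 49 members, 45 had a lower 48 h mean than sdAb#07.81 mean, while 55.9% of all genes compared did. The median log2 ratio of the members was -0.35, and the members ranged from -1.13 for *Tk1* to 0.44 for *Pold4*. A 48 h mean at least 1.2-fold lower was found for 31 members, against a background of 26.1% of the genes compared, and at least 1.2-fold higher for 1 member, against 16.8%. At 1.5-fold, 15 members were lower, against 7.45%, and 0 were higher, against 2.83%. Together the members held 0.286% of the summed 48 h means and 0.394% of the summed sdAb#07.81 means. Fewer cells in S phase and less RNA of these genes per cell cannot be told apart in bulk RNA.

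**Figure D1:**
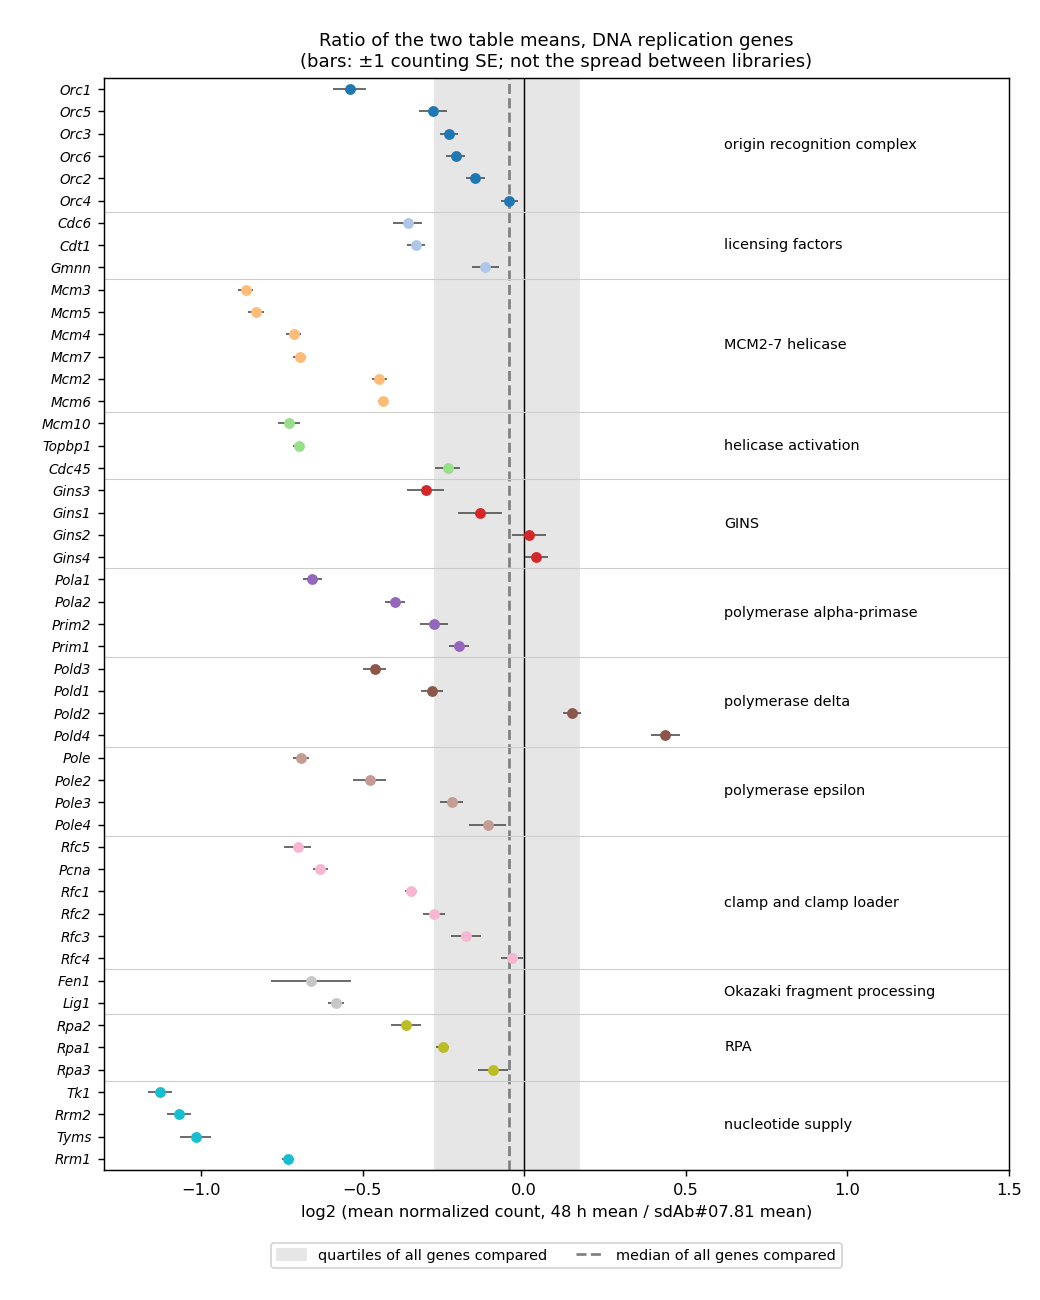
Each point is the log2 ratio of the 48 h mean to the sdAb#07.81 mean of 1 member, ordered within its complex, and bars are 1 counting SE on each side. The dashed line and grey band are the median and quartiles of the 13951 genes compared (-0.05, -0.28 and 0.17), and the nucleotide supply genes and the MCM2-7 subunits lie to the left of the band, while *Pold4* lies to its right.

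The widest gaps were among the 4 genes of nucleotide supply, which all had a 48 h mean at least 1.5-fold lower, against 7.45% of the genes compared, with a median log2 ratio of -1.04. *Tk1*, the cytosolic thymidine kinase of the salvage pathway, had a 48 h mean of 545 and an sdAb#07.81 mean of 1191, a ratio of 0.458 (log2 ratio -1.13, counting SE 0.037), and 0.961% of the genes compared had a lower ratio. *Rrm2*, the small subunit of ribonucleotide reductase that is limiting for dNTP synthesis, had 547 against 1146, a ratio of 0.477. *Tyms*, thymidylate synthase, had 336 against 681, a ratio of 0.494. If the means as deposited share a scale, the levels of *Tk1*, *Rrm2* and *Tyms* in sdAb-Con (48 h) were below those in sdAb#07.81 (24 h) by a factor of at least 2.18, 2.10 and 2.02. The tables were normalized separately, and with ratios centred on the median of all genes these limits were 2.11, 2.03 and 1.96. *Rrm1*, the large subunit of the reductase, had the highest level of the 4 with 2602 against 4316 and a ratio of 0.603, so the partner subunits differed in the size of the gap.

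All 6 subunits of the MCM2-7 ring, the motor of the replicative helicase, had a 48 h mean at least 1.2-fold lower, against 26.1% of the genes compared, and 4 passed 1.5-fold, against 7.45%. Their median log2 ratio was -0.70. *Mcm3* had 1499 in the 48 h mean and 2723 in the sdAb#07.81 mean (log2 ratio -0.86, counting SE 0.023). *Mcm5* had 1457 against 2590 and a log2 ratio of -0.83. Their ratios are neighbours in the order, and with a counting SE of 0.024 for *Mcm5* their bars of 1 counting SE overlap. *Mcm4* and *Mcm7* followed with 1621 against 2656 and 1960 against 3173, log2 ratios of -0.71 and -0.69. *Mcm2* had 1613 against 2200 and *Mcm6* had 3757 against 5086, log2 ratios of -0.45 and -0.44. The ring thus separated into *Mcm3*, *Mcm4*, *Mcm5* and *Mcm7* with wider gaps and *Mcm2* and *Mcm6* with narrower ones, a division made after the values were seen.

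The promoters of *Mcm3*, *Mcm5* and *Mcm6* are printed to show what these genes carry upstream, beside those of *Tk1* and *Pold4*, the members with the lowest and the highest ratio. They are RefSeq windows of GRCm38.p6, from 250 bases before to 50 bases after the start of the gene, written 5′ to 3′ on the strand of the gene. Capitals mark the 4 words of an E2F site, TTTGGCGC, TTTCCCGC, TTTCGCGC and TTTGCCGC, and the word CCAAT, each on either strand.
Mcm3 (chr1:20820263-20820562, strand minus): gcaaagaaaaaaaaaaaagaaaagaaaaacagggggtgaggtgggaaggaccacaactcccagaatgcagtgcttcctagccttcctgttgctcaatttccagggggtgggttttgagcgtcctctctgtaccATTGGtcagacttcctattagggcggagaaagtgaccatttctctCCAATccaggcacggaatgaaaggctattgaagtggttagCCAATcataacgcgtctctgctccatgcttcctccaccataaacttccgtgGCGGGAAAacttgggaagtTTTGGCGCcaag
Mcm5 (chr8:75109259-75109558, strand plus): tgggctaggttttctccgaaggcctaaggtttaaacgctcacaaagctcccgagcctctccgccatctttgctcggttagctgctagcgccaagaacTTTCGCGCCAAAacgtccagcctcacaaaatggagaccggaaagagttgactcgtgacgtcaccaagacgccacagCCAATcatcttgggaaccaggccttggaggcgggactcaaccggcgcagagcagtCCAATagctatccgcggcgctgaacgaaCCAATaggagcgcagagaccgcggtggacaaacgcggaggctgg
Mcm6 (chr1:128359656-128359955, strand minus): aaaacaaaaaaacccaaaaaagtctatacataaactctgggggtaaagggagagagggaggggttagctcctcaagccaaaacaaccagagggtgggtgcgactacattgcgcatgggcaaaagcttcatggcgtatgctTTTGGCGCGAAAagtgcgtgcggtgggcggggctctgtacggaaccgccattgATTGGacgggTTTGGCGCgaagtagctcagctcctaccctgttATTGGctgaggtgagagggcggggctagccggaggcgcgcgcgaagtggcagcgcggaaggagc
Tk1 (chr11:117825965-117826264, strand minus): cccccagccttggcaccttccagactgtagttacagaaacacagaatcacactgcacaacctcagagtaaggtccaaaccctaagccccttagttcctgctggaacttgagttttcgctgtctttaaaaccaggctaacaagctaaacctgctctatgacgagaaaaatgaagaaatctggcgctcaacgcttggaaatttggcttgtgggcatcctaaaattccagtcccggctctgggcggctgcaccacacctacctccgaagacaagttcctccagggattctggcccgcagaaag
Pold4 (chr19:4231643-4231942, strand plus): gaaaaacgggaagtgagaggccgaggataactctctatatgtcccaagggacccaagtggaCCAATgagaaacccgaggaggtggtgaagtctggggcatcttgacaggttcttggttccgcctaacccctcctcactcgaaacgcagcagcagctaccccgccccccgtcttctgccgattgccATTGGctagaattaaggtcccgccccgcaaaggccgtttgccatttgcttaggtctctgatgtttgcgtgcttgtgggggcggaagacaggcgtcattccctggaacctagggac
The *Mcm3* window holds 2 E2F words and 3 CCAAT words, that of *Mcm5* also 2 and 3, and that of *Mcm6* 3 and 2. Overlapping matches count separately, as in the *Mcm5* and *Mcm6* windows, where words on opposite strands share letters. The windows of *Tk1* and *Pold4* hold 0 E2F words, although their ratios lie at opposite ends, and 0 and 2 CCAAT words.

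Promoter windows were matched for 41 of the 49 members by symbol. An E2F word was present in 17 of them (41.5%), against 2.60% of 27025 genes with a window and 4.79% of 9914 such genes among those compared. CCAAT was present in 24 members (58.5%), against 41.1% of all genes with a window and 43.3% of those compared. By complex, an E2F word was found in 4 of 5 MCM2-7 genes, 2 of 2 licensing genes, 1 of 1 GINS gene, 2 of 3 polymerase epsilon genes, 2 of 4 polymerase delta genes and 1 of 2 genes of Okazaki fragment processing. It was found in 2 of 6 genes of the origin recognition complex, 1 of 3 of polymerase alpha-primase, 1 of 3 of helicase activation, 1 of 5 of the clamp and its loader, 0 of 3 RPA genes and 0 of 4 nucleotide supply genes. The median log2 ratio was -0.46 for the 17 members with an E2F word and -0.32 for the 24 without, and it was -0.36 for the 24 members with CCAAT and -0.40 for the 17 without. The lowest 3 ratios belonged to members without an E2F word, and so did both ratios above 0. A match describes letters in the window only, and nothing was measured on binding.

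**Figure D2:**
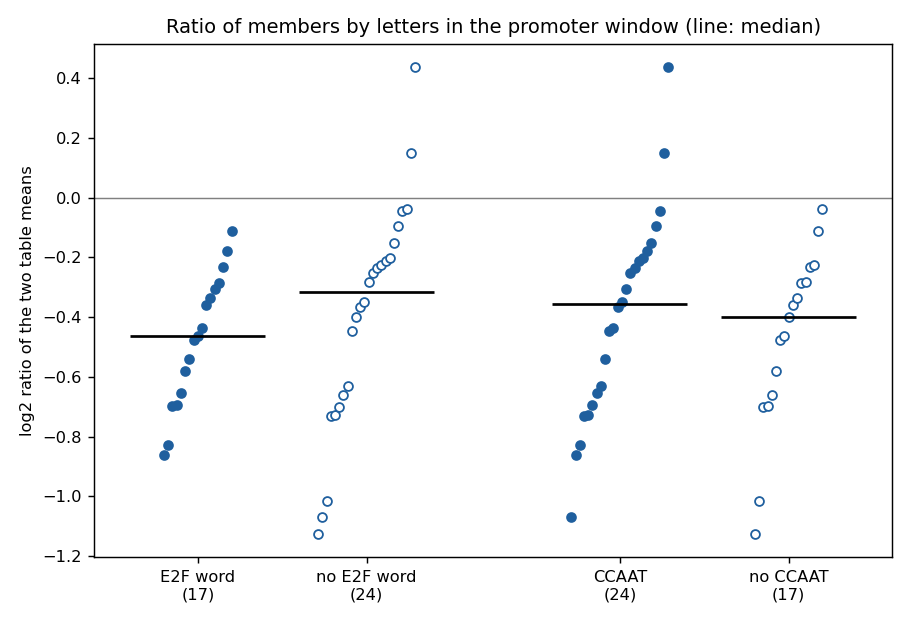
Points are the 41 members with a promoter window, split by the presence of an E2F word and of CCAAT, with the log2 ratio of the 48 h mean to the sdAb#07.81 mean on the vertical axis and a line at each median. Members with an E2F word run from -0.86 to -0.11 and lie within the range of those without, from -1.13 to 0.44, with medians of -0.46 and -0.32. Those with and without CCAAT overlap over most of the range, with medians of -0.36 and -0.40.

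Among factors that activate the helicase, *Mcm10* and *Topbp1* had gaps like those of the ring, and *Cdc45* a smaller one. *Mcm10*, needed for origin firing, had 664 against 1100 (log2 ratio -0.73). *Topbp1*, a scaffold of helicase assembly that also activates the ATR kinase, had 2873 against 4662 (log2 ratio -0.70). *Cdc45*, which forms the active helicase together with MCM2-7 and GINS, had 615 against 725 (log2 ratio -0.24, counting SE 0.040). The GINS genes stood apart from the ring they bind, with 2 below and 2 above, a share near the 55.9% of all genes compared that were lower. Their median log2 ratio was -0.06, near that of all genes compared (-0.05). *Gins3* had 282 against 348 and *Gins1* 216 against 238, while *Gins2* had 385 against 381 and *Gins4* 821 against 800. Of the 4, *Gins3* alone passed 1.2-fold, against 26.1% of the genes compared, and it no longer did when ratios were centred on the median of all genes (1.196-fold). The log2 ratio of *Gins2* was 0.016, smaller than its counting SE of 0.052, and that of *Gins4* was 0.038, close to its counting SE of 0.036. In GENCODE M21, 67.3% of the exon bases of *Gins2* overlap exons of *Gse1* on the opposite strand. Whether counting used the strand is not stated.

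Licensing genes had smaller gaps. Of the 6 genes of the origin recognition complex, all had a lower 48 h mean, as did 55.9% of the genes compared. Their median log2 ratio was -0.22. *Orc1* and *Orc5* passed 1.2-fold, as 26.1% of the genes compared did, and after centring on the median of all genes *Orc5* no longer did (1.18-fold). *Orc1*, the subunit whose level is known to vary with the cell cycle, had 337 against 489 (log2 ratio -0.54, counting SE 0.051). *Orc5*, *Orc3*, *Orc6* and *Orc2* ranged from -0.28 to -0.15. Exons of *Nif3l1* on the opposite strand cover 29.8% of the exon bases of *Orc2* in GENCODE M21. *Orc4* had 1553 against 1603, a log2 ratio of -0.05 that turned positive when ratios were centred on the median of all genes. *Cdc6*, the ATPase that helps to load the ring, had 476 against 611 (log2 ratio -0.36). *Cdt1*, its partner in loading, had 1126 against 1419 (log2 ratio -0.33). *Gmnn*, which encodes geminin, the inhibitor of Cdt1, had 581 against 632 (log2 ratio -0.12), so the inhibitor had a smaller gap than its target.

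In each polymerase the catalytic subunit had a lower 48 h mean, with different values for the accessory subunits. *Pola1*, the catalytic subunit of polymerase alpha, had 1003 against 1581 (log2 ratio -0.66), and its partner *Pola2* had 956 against 1260 (log2 ratio -0.40). The primase subunits *Prim2* and *Prim1*, which make the RNA primers, had log2 ratios of -0.28 and -0.20. *Pole*, the catalytic subunit of the leading-strand polymerase epsilon, had 1324 against 2135 (log2 ratio -0.69). *Pole2* followed with 345 against 480 (log2 ratio -0.48), and the histone-fold subunits *Pole3* and *Pole4* with -0.22 and -0.11. In polymerase epsilon the gap thus became narrower from the catalytic to the small subunits.

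Polymerase delta, which extends Okazaki fragments, was the complex with the widest range, from -0.46 to 0.44. *Pold3* had 666 against 918 (log2 ratio -0.46) and the catalytic *Pold1* 847 against 1033 (log2 ratio -0.29). *Pold2* had 1325 against 1195 (log2 ratio 0.15, counting SE 0.029). *Pold4*, the smallest subunit, had 615 against 455 (log2 ratio 0.44, counting SE 0.045), the single member with a 48 h mean at least 1.2-fold higher. If the means as deposited share a scale, its level in sdAb-Con (48 h) was at least 1.35 times that in sdAb#07.81 (24 h). In GENCODE M21, 24.6% of the exon bases of *Pold4* overlap another annotated gene on the same strand, so reads could have been divided between them.

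*Pcna*, the sliding clamp that holds the polymerases on DNA, had 1497 against 2318 (log2 ratio -0.63, counting SE 0.024). Among the subunits of replication factor C, which opens and loads the clamp, *Rfc5* had 479 against 778 (log2 ratio -0.70) and *Rfc1*, the large subunit, 2895 against 3691 (log2 ratio -0.35). *Rfc2* and *Rfc3* had log2 ratios of -0.28 and -0.18. *Rfc4* had 841 against 864, a log2 ratio of -0.04 that became positive after centring on the median of all genes. The clamp loader thus held both a subunit near the ring in its gap and one near the median of all genes. Exons of genes on the opposite strand cover 15.1% of the exon bases of *Rfc2*, 12.7% of *Rfc4* and 10.7% of *Rfc5* in GENCODE M21. The part of this overlap in their values was not tested.

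Of the genes that finish Okazaki fragments, *Lig1*, the DNA ligase that seals them, had 1419 against 2124 (log2 ratio -0.58). *Fen1*, the flap endonuclease, had 55.2 against 87.2 (log2 ratio -0.66, counting SE 0.12), the lowest level of all members. In GENCODE M21, 84.2% of the exon bases of *Fen1* overlap exons of other genes on the opposite strand, among them *Tmem258*, more than for any other member, and the part of this overlap in its low count was not tested. The RPA subunits, which coat single-stranded DNA, had log2 ratios of -0.36 for *Rpa2*, -0.25 for *Rpa1* and -0.10 for *Rpa3*, with 1 of 3 past 1.2-fold, a share near that of all genes compared.

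Levels were compared between genes as the mean normalized count per kilobase of the longest transcript. *Pcna* had the highest level, 986 in the 48 h mean and 1527 in the sdAb#07.81 mean. *Mcm6*, *Mcm7* and *Topbp1* followed with 1168, 1071 and 892 in the sdAb#07.81 mean. *Fen1* was lowest with 36.7 in the sdAb#07.81 mean, where the next lowest were *Gins2* with 97.7 and *Cdc6* with 127. In the 48 h mean *Fen1* was also lowest, and *Tyms* came next with 86.6. The subunits of the MCM2-7 ring, which are present in equal number in the ring, spanned 1.85-fold in the sdAb#07.81 mean and 2.00-fold in the 48 h mean. The 4 subunits of GINS, likewise equal in number in their complex, spanned 6.07-fold and 6.16-fold, and the origin recognition complex 5.42-fold and 6.80-fold. The low end of the GINS span is *Gins2*, which has a longest transcript of 3.9 kb and the exon overlap with *Gse1* given above. The spans are those of mRNA levels, and transcript choice alters them. Spans per complex were not computed with another length.

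**Figure D3:**
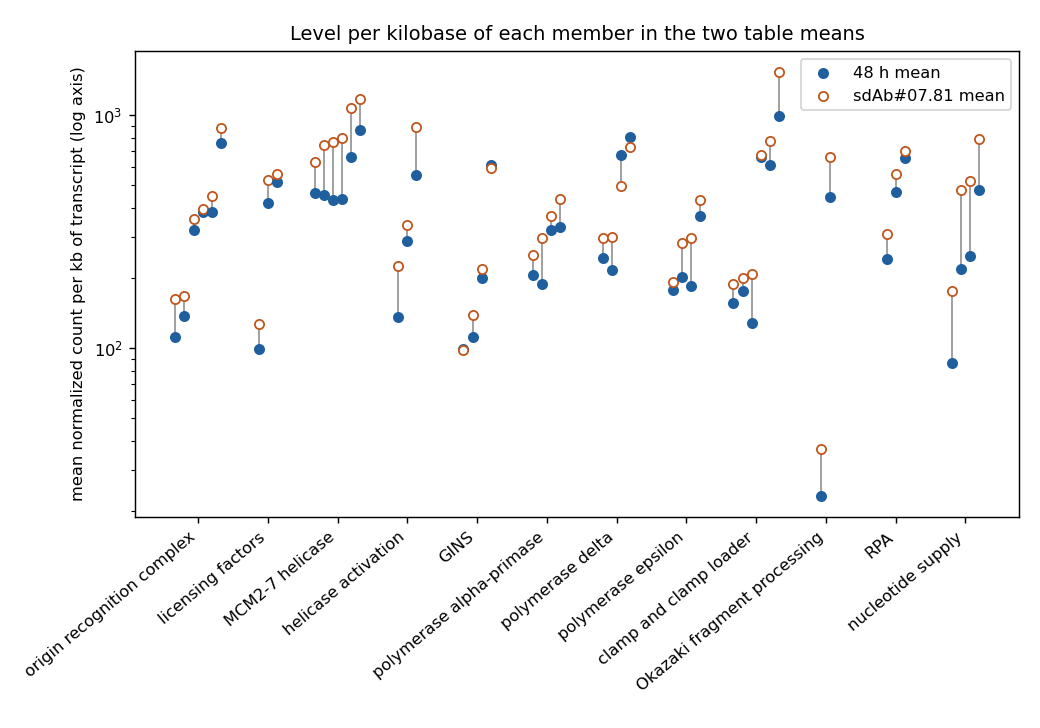
The vertical axis is the mean normalized count per kilobase of the longest transcript on a log scale, with 1 pair of points per member, filled for the 48 h mean and open for the sdAb#07.81 mean. The MCM2-7 subunits lie close together, from 431 to 863 in the 48 h mean, and the low point under Okazaki fragment processing is *Fen1* with 23.3 and 36.7.

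Another 25 genes of replication, none of them a member, showed a like picture. This list was chosen with earlier results of these data known. Of the 25, 23 had a lower 48 h mean, against 55.9% of the genes compared. All 23 passed 1.2-fold, against 26.1%, and the median log2 ratio of the list was -0.51. *Dna2*, a nuclease and helicase of Okazaki fragments, had 48.3 against 123 (log2 ratio -1.34, counting SE 0.12). *Ticrr*, which brings Cdc45 to origins, had 485 against 925 (log2 ratio -0.93). *Timeless*, of the fork protection complex, had 384 against 707 (log2 ratio -0.88), while its partner *Tipin* had -0.33. *Dbf4* and *Cdc7*, the regulatory and catalytic subunits of the kinase that phosphorylates the MCM ring, had log2 ratios of -0.53 and -0.41. *Top2a*, the topoisomerase that untangles sister DNA, had the highest mean of the list, 16372 against 24317 (log2 ratio -0.57). The 2 genes above 0 were *Rnaseh2a*, with 0.08, and *Rrm2b*, the p53-inducible small subunit of ribonucleotide reductase, with 1361 against 1174 (log2 ratio 0.21). *Rrm2b* and *Rrm2* thus lay on opposite sides of 0.

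**Figure D4:**
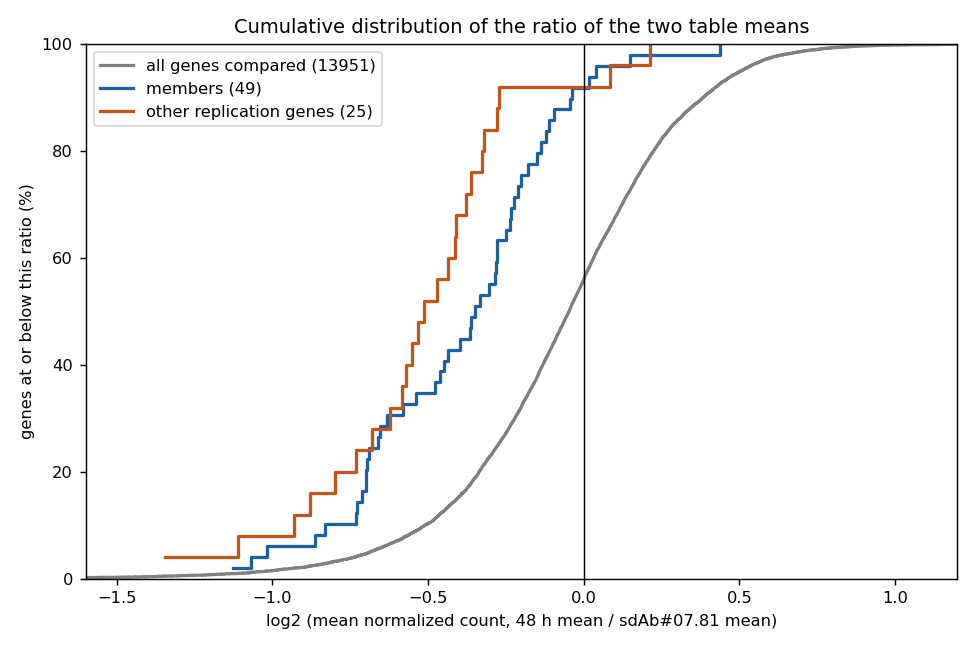
The horizontal axis is the log2 ratio of the 48 h mean to the sdAb#07.81 mean, and the vertical axis the percentage of genes at or below it, for the 13951 genes compared, the 49 members and the 25 other replication genes. Both replication lists lie to the left of all genes, with medians of -0.35 and -0.51 against -0.05.

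Ratios moved with transcript length. Across the genes compared that have a known length, Spearman's rho of the log2 ratio with the length of the longest transcript was -0.33 (13794 genes), and among the 49 members it was -0.44. These are descriptions over genes measured in the same libraries. Members were of usual length, with a median of 3.07 kb against 3.14 kb for all genes. Between 1.95 and 3.88 kb, the quartiles of the members' lengths, all 25 members had a lower 48 h mean, with a median log2 ratio of -0.45, while the 5249 genes of that length had a median of -0.02 and 52.7% of them were lower. The 12 members longer than this range had log2 ratios from -0.73 to 0.02 with a median of -0.40, among them *Pole* (7.16 kb) with -0.69, *Topbp1* (5.22 kb) with -0.70, *Rpa1* (5.08 kb) with -0.25 and *Rfc1* (4.75 kb) with -0.35. The 12 shorter members had log2 ratios from -0.63 to 0.44 with a median of -0.12, and 3 of the 4 members above 0, *Pold4*, *Pold2* and *Gins4*, were among them. The shortest, *Rpa3* (0.682 kb) and *Pold4* (0.913 kb), had -0.10 and 0.44. *Tk1* (2.49 kb) and *Rrm2* (2.19 kb) had the lowest ratios at a length below the median. The part of transcript length in the members' ratios was not tested.

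In the annotation deposited with the tables, 29 of the 49 members belong to the KEGG pathway DNA replication and 15 to the pathway Cell cycle. The members are spread over the genome. *Tk1* is listed as ENSMUSG00000025574 on chromosome 11 from 117706352 to 117716918, and *Pold4* as ENSMUSG00000024854 on chromosome 19 from 4281953 to 4283688. The build of these positions is not named, and 2.02% of 25922 genes shared with GENCODE M21 have the same start and end as in GRCm38.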

How the data were processed

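Paired-end RNA-seq reads of 4T1 cells were made by the authors on an Illumina NovaSeq. The submitters' processing notes name cutadapt 1.9.1, HISAT2 2.0.1, HTSeq 0.6.1 and GRCh38.p14, a human build, although the gene identifiers are mouse. Whether counting used strand is not given in the sources used here. The deposited signal is a mean normalized count per gene, which the authors averaged over 4 libraries of 2 groups after division by size factors. Further columns (fold change, its log2, standard error, statistic, p-value, adjusted p-value) hold the authors' own comparisons and were not used. The plan assumed counts per library, but the tables hold no such values, so no test was made.

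The 48 h mean was divided by the sdAb#07.81 mean for each gene ID. Genes with an average mean of at least 10 were compared, and folds of 1.2 and 1.5 were counted. The tables were normalized separately, and other scalings are given in the closing section. The counting SE used 4 times each mean as reads and covers counting error only. Transcript lengths and exon overlaps came from GENCODE M21 by gene ID, and promoters from RefSeq GRCm38.p6. Every member was named, and for a repeated symbol the row with the highest mean would have been used. The members and lists were chosen with earlier results of these data known, and the folds, motifs and length range after the values were seen. Steps ran in Python 3.11.15 (pandas 2.3.3, numpy 2.4.6), with correlations from scipy 1.17.1 and figures from matplotlib 3.10.9.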

Additional observations from a re-analysis of the deposited data

How the results depend on the processing

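No paired analysis was possible because only averages over libraries were given. For the same reason the planned count tests, the fits on normalized values, leave-one-out and the filter on counts were not run. Summing the rows of a symbol could not change a member, since each is on 1 row. The sums of the tables have a log2 ratio of -0.0026, so scaling them to equal sums was too small a change to bear on stability. It left 45 members lower in the 48 h mean, against 55.6% of all genes, 31 past 1.2-fold, against 25.9%, and 15 past 1.5-fold. Ratios were also centred on the median of all genes, a scaling chosen after seeing the data that shifts every log2 ratio by the same 0.05. The members lower were then 43, against 50% of all genes, and those past 1.2-fold lower 26, against 22.3%. Past 1.5-fold were 14 members, and the share of all genes past it was not computed under this scaling. The median log2 ratio was -0.30, and 2 members, *Orc4* and *Rfc4*, changed sign. *Orc5*, *Gins3*, *Prim2*, *Pold1* and *Rfc2* were then no longer past 1.2-fold, nor *Pcna* past 1.5-fold. The share of all genes lower was 59.0% without the filter and 57.6% at an average mean of at least 100. With the median transcript length, the span of levels per kilobase over all members was 146-fold in the 48 h mean and 150.2-fold in the sdAb#07.81 mean, against 42.4-fold and 41.5-fold with the longest. The depth limits *Fen1* most, with 221 reads behind its 48 h mean.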
